A study of Mus musculus with 18 samples.

Results

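The progression of myocardial infarction (MI) between 3 and 14 days was examined in mouse hearts that had received an adeno-associated virus carrying mouse Fgf17. The comparison rests on 7 of the 18 libraries of the study, namely the 3 collected 14 days and the 4 collected 3 days after MI with the Fgf17 virus, chosen by the names of their columns in the deposited gene table, and on all of its 12988 genes. Per the design text of the series, a subcutaneous dose of AAV9 (an adeno-associated virus) was given to newborn mice. It brought in either the mouse gene Fgf17, whose product is a secreted growth factor of the FGF family, or none (control vector). At 8 weeks of age the left anterior descending coronary artery was tied off for good, or a sham operation was done. The other 11 libraries carry the control vector: 4 from day 3 and 3 from day 14 of MI, and 4 from sham hearts, for which the labels give no day. No sham heart with Fgf17 was among the samples, and the promoter of the virus and the animals behind each library are not given in the sources used here, so that p-values measure the spread between libraries, part of which may be technical. Libraries carry the numbers of their columns: 1, 2, 3 and 4 at day 3 and 1, 3 and 4 at day 14.

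After a coronary artery is closed, dying muscle is first cleared by neutrophils and by macrophages that arise from blood monocytes. Fibroblasts then multiply, turn into contractile matrix-making cells and lay down a collagen scar, and as the scar matures they stop dividing and take on a state with cartilage and tendon genes, termed matrifibrocyte. Heart muscle outside the scar shifts its gene expression away from fatty acid oxidation and recovers it to differing degrees. Fibroblast growth factors act through receptor tyrosine kinases and the ERK cascade, whose feedback inhibitors of the Sprouty and Dusp families are common readouts.

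Values are FPKM (fragments per kilobase of transcript, scaled to the mapped fragments of the library), a unit scaled to gene length. The numbers of reads are not known, so depth cannot be given and no counting intervals were made. The FPKM of a library summed to 324059 to 336939 at day 3 and to 301085 to 334384 at day 14, and the 13 mitochondrially encoded genes took 27.9 to 30.7% of that sum at day 3 but 32.8, 28.9 and 20.8% in libraries 1, 3 and 4 at day 14. In sham hearts that share was 35.6 to 41.7%, and percentages of sham in the text are of FPKM as deposited unless stated otherwise. Log2 values correlated with those of the other libraries of the group at 0.978 or more at day 3 and 0.974 or more at day 14. Cardiomyocyte genes were among the most abundant in every library, for example Mb (myoglobin), at 2545 ± 215 FPKM (SD, n = 4) on day 3 and 3802 ± 202 FPKM (SD, n = 3) on day 14.

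The vector-borne gene itself did not differ between the days beyond the spread of the libraries. Fgf17 (GRCm38 chromosome 14, 70636203 to 70642268, minus strand) was at 47.0, 75.6, 58.6 and 54.3 FPKM in the 4 day 3 libraries and at 49.7, 93.4 and 45.3 FPKM in the 3 day 14 libraries, and the ranges overlapped. The difference of the means was 3.92 FPKM (day 14 minus day 3, exact two-sided permutation p = 0.80 over 35 groupings, of which the smallest possible p is 0.0286), and it turned to -11.4 FPKM without day 14 library 3 and to -0.0360 FPKM without day 3 library 1. The 7 libraries of MI with the control vector held 0 to 0.380 FPKM, and Fgf17 was listed at 0 in all 4 sham libraries.

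Of the 12052 genes tested with limma on log2(FPKM + 0.5), 4659 (38.7%) differed between day 14 and day 3 with FGF17 at a Benjamini-Hochberg adjusted p under 0.05. At day 14, 1953 (16.2%) were higher and 2706 (22.5%) lower. Changes of at least 2-fold were mostly falls, with 698 genes lower and 185 higher. The libraries of the days did not overlap for 4245 of the 4659. Calls made on the same libraries favour such separation, and this count was not made over all genes tested. With the control vector, 3555 genes (29.5%) differed between the days, 1347 higher and 2208 lower, and 2533 genes were called with both vectors in the same direction, which is 54.4% of the calls with FGF17 and 71.3% of those with the control vector. The test of the difference between these changes called 44 genes (0.365%), 13 with a more positive and 31 with a more negative change with FGF17. This count ranged from 0 to 193 when single libraries were left out. It was 0 without day 3 FGF17 library 4, day 14 FGF17 library 3, day 14 control library 2 or day 3 control library 1, and 193 without day 14 control library 4. It was also 0 with limma when libraries were scaled to a common total or blocked by number, with 1543 and 1665 genes at an unadjusted p under 0.05, so every call of this test was lost under at least 6 of 24 alternatives. The median change of all genes tested was -0.03 with FGF17 and -0.02 with the control vector (log2), the value beside which the medians of gene lists below are to be read. Counts of list members with FGF17 are likewise to be read beside the 16.2% higher and 22.5% lower of all genes tested. Counts with the control vector are to be read beside its own smaller totals, 1347 higher and 2208 lower of 12052. In such whole-tissue values, fewer cells of a type and less RNA per cell cannot be told apart.

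**Figure D1:**
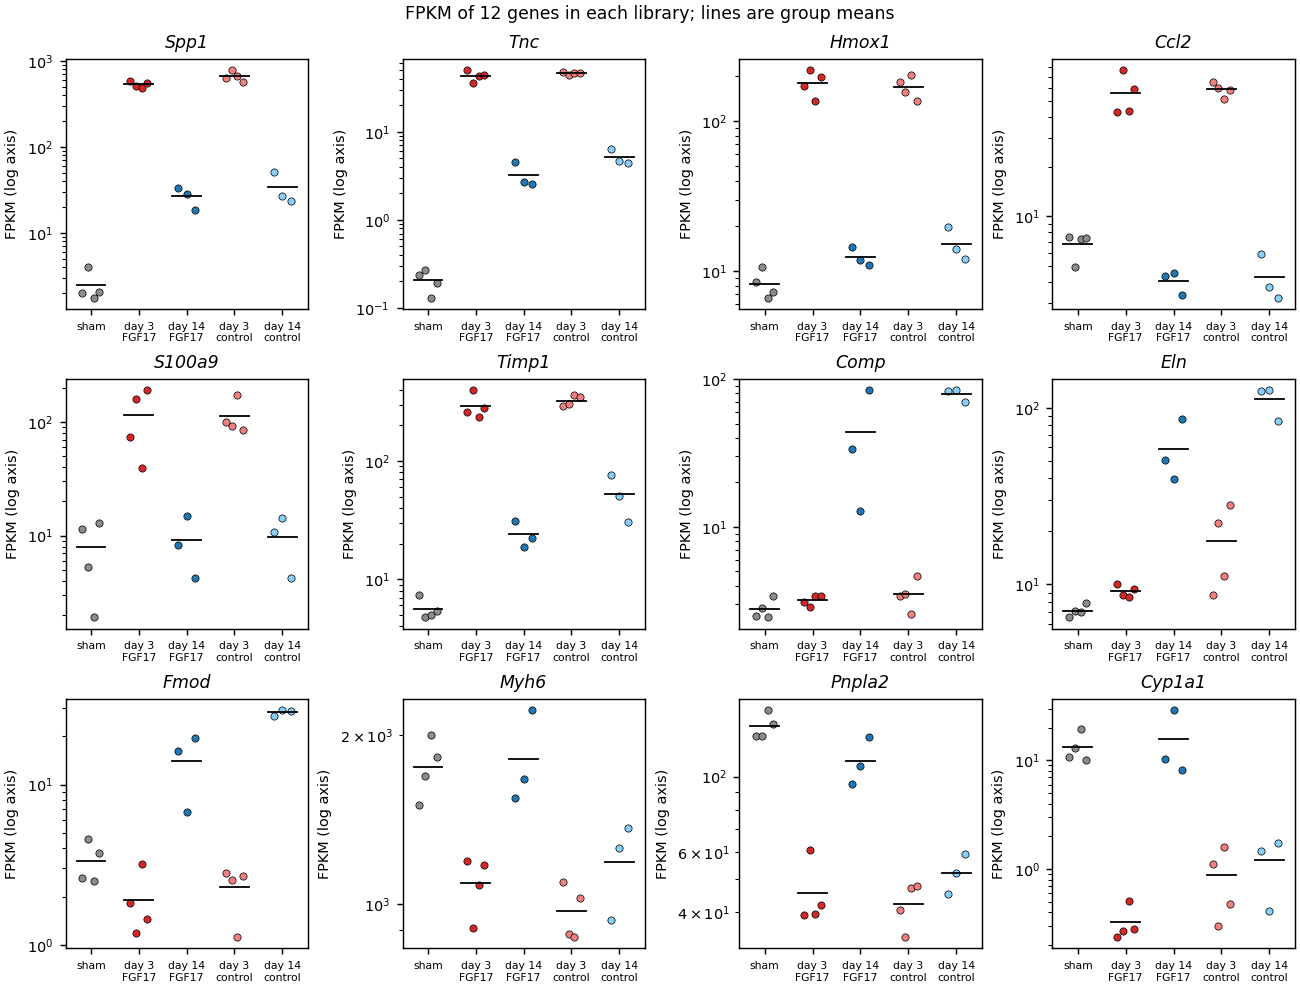
FPKM of 12 genes in every library (points, log axis) of the 5 groups, with lines at the group means. Spp1, Tnc, Hmox1, Ccl2, S100a9 and Timp1 were lower in all 3 day 14 than in all 4 day 3 libraries with FGF17, while Comp, Eln, Fmod, Myh6, Pnpla2 and Cyp1a1 were higher. For all but Myh6 and Pnpla2, the naming rule required this separation.

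Among the genes picked by the naming rule, the steepest falls were those of Sprr1a, Arg1, Spp1 and Hmox1. Spp1 (osteopontin, a secreted phosphoprotein of healing infarcts; GRCm38 chromosome 5, 104435118 to 104441050, plus strand) stood at 592, 510.0, 483 and 554 FPKM in the day 3 libraries and at 33.4, 28.9 and 18.4 FPKM in the day 14 libraries, a log2 change of -4.33 ± 0.26 (SE, limma adjusted p = 2.1e-09). No day 14 library came near the lowest day 3 value, and the sham mean was 2.48 FPKM. Arg1, the arginase of wound macrophages, fell from 103, 82.8, 79.8 and 142 FPKM to 5.88, 4.68 and 1.40 FPKM in the same order of libraries (log2 change -4.65 ± 0.41, limma adjusted p = 1.8e-07). Sprr1a, a small proline-rich protein made by stressed cardiomyocytes, fell furthest of the genes named by the naming rule, from 132, 123, 119 and 87.2 FPKM to 5.99, 1.72 and 5.19 FPKM (log2 change -4.72 ± 0.36, limma adjusted p = 3.5e-08). Hmox1, the inducible heme oxygenase, was at 171, 218, 136 and 197 FPKM on day 3 and at 14.5, 11.8 and 10.9 FPKM on day 14 (log2 change -3.8 ± 0.19, limma adjusted p = 3.9e-10). For each of the 4 genes the days were wide apart, and the naming rule required that their libraries not overlap. Sprr1a and Arg1 still varied widely among the day 14 libraries. The other falls that the rule names were those of Cxcl5, AA467197, Hist1h2ap, Stfa2l1, Timp1, Chil3, Ccl2, Tnc, S100a9, Pclaf and Apoc2, with log2 changes from -3.71 for Cxcl5 to -3.48 for Apoc2. Hist1h2ap and Stfa2l1 have near-identical copies, so that their own levels are uncertain. The same 15 genes fell with the control vector as well, with log2 changes from -5.45 for Arg1 and -4.34 for Spp1 to -2.17 for Hist1h2ap, and none of them was among the 44 genes of the difference test.

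Chemokines fell together. Of 25 chemokine genes tested, 17 fell and 0 rose, with a median log2 change of -1.7 (18 fell and the median was -1.41 with the control vector). Ccl2, which draws monocytes through Ccr2, was at 43.0, 76.3, 43.5 and 58.7 FPKM on day 3 and at 4.39, 4.52 and 3.34 FPKM on day 14, and Ccl7, a ligand of the same receptor, at 71.8, 107, 71.0 and 82.7 and at 6.76, 14.4 and 4.85 FPKM. The day 14 values of Ccl2 were below its sham mean of 6.77 FPKM, and those of Ccl7 lay on both sides of its sham mean of 8.66 FPKM. Cxcl5, a neutrophil attractant, fell by 3.71 on the log2 scale from a mean of 27.7 ± 16.3 FPKM, and Pf4, the platelet factor that macrophages also make, from 156 ± 8.35 to 38.6 ± 5.15 FPKM (log2 change -2.01 ± 0.19). Ccl5 fell by 1.0 on the log2 scale, a call that was lost without day 3 library 2 or 3 or day 14 library 3 or 4. Of 26 receptors of chemokines and cytokines 16 fell and 1 rose, among them Cxcr2, the receptor of the neutrophil attractants, from 7.44 ± 5.63 to 0.0991 ± 0.0245 FPKM, and Csf3r, the G-CSF receptor, from 9.37 ± 4.72 to 0.857 ± 0.1099 FPKM. Among interleukin, TNF and acute phase genes 16 of 22 fell and 0 rose (median -1.01, log2; -0.83 with the control vector). Il6 was at 2.52, 10.1, 2.52 and 4.55 FPKM on day 3 and 0.293, 0.0780 and 0.122 FPKM on day 14, and Il1b at 6.75, 26.9, 4.37 and 14.7 and 1.81, 0.611 and 1.22 FPKM. These cytokines of early inflammation were thus low in all day 14 libraries, without overlap of the days.

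Markers of leukocytes fell in the same libraries, and to differing degrees by cell type. Neutrophil markers fell in 11 of 13 tested genes (median -2.74, log2), and their summed level was 99.5 to 454 FPKM on day 3, 16.0 to 33.9 FPKM on day 14 and 8.19 to 33.5 FPKM in sham hearts. S100a9, a subunit of the calcium-binding protein calprotectin, was at 73.8, 161, 39.6 and 191 FPKM on day 3 and at 8.23, 14.9 and 4.24 FPKM on day 14, and day 3 libraries 2 and 4 held the highest values. Its partner S100a8 fell from 85.2 ± 50.1 to 7.74 ± 2.21 FPKM. By the medians over the list, neutrophil markers were at 1740% of their sham level on day 3 and at 120% on day 14. Markers of monocytes and macrophages fell in 17 of 20 (median -1.06), but stayed at a median of 256% of sham on day 14 after 611% on day 3. Among them Cd68, a macrophage lysosomal membrane protein, went from 71.5 ± 10.2 to 14.2 ± 3.73 FPKM and Lyz2, the myeloid lysozyme, from 704 ± 66.5 to 381 ± 34.6 FPKM, and Chil3, a chitinase-like protein of inflammatory monocytes, from 23.2 ± 19.5 to 1.03 ± 0.286 FPKM. Lipid-handling repair macrophage markers fell in 10 of 20 and rose in 0. Apoc2, an activator of lipoprotein lipase, went from 10.8 ± 1.31 to 0.678 ± 0.787 FPKM and Lgals3 (galectin-3) from 67.1 ± 10.4 to 15.6 ± 3.19 FPKM. Resident macrophage markers were mixed, with 4 falls and 2 rises among 14. Mrc1, the mannose receptor, fell from 34.3 ± 3.24 to 18.7 ± 2.99 FPKM, while Retnla, a secreted protein of alternatively activated macrophages, rose from 2.23, 0.409, 2.12 and 0.570 to 11.6, 13.9 and 9.81 FPKM (log2 change 2.9 ± 0.34, limma adjusted p = 4.4e-06). T cell markers hardly passed the filter: 6 were tested, of which Thy1, also made by fibroblasts, fell. Of 4 B and plasma cell genes tested 1 rose, Jchain, the joining chain of secreted antibodies, which was at 0.517, 0.763, 0.611 and 0.424 FPKM on day 3 and at 9.04, 6.39 and 17.9 FPKM on day 14 (log2 change 3.31 ± 0.69, limma adjusted p = 0.0011). Its change with the control vector was 1.81 ± 0.69 (limma adjusted p = 0.057), and the difference between the vectors was not called (limma adjusted p = 0.51).

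The summed levels of macrophage markers were 1455 to 1717 FPKM on day 3 and 674 to 759 FPKM on day 14, and those of cardiomyocyte markers 15170.0 to 16460.0 and 19230.0 to 22460.0 FPKM. No member of these 2 lists was at 0 in all libraries of a day, and the part of such shifts in the falls and rises described here was not tested.

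Innate immune genes outside these cell markers did not move as a block. Interferon-stimulated genes were mostly not called, with 2 rises and 2 falls among 26 and between 0 and 5 rises when settings or libraries changed. Zbp1 and Mx1, nucleic acid sensor and antiviral GTPase, had log2 changes of -1.08 and -0.97. Of 19 complement genes 7 fell and 5 rose. The falls included C3ar1, the C3a receptor of myeloid cells (log2 change -1.88 ± 0.15), and Cfp, properdin (-1.8 ± 0.15), and the rises C4b (1.1 ± 0.17) and Cfd, the adipocyte protease factor D, from 6.54 ± 1.48 to 30.6 ± 10.5 FPKM. The number of complement rises was 3 without day 3 library 1, 3 or 4 or without day 14 library 1 or 4. Antigen presentation genes held 1 rise and 2 falls among 18. Lysosomal genes fell in 26 of 39 and rose in 3 (median -0.47, log2), with the cathepsins Ctss from 301 ± 32.4 to 109 ± 13.2 FPKM and Ctsb from 202 ± 11.1 to 88.4 ± 6.92 FPKM. With the control vector 25 fell (median -0.40).

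**Figure D2:**
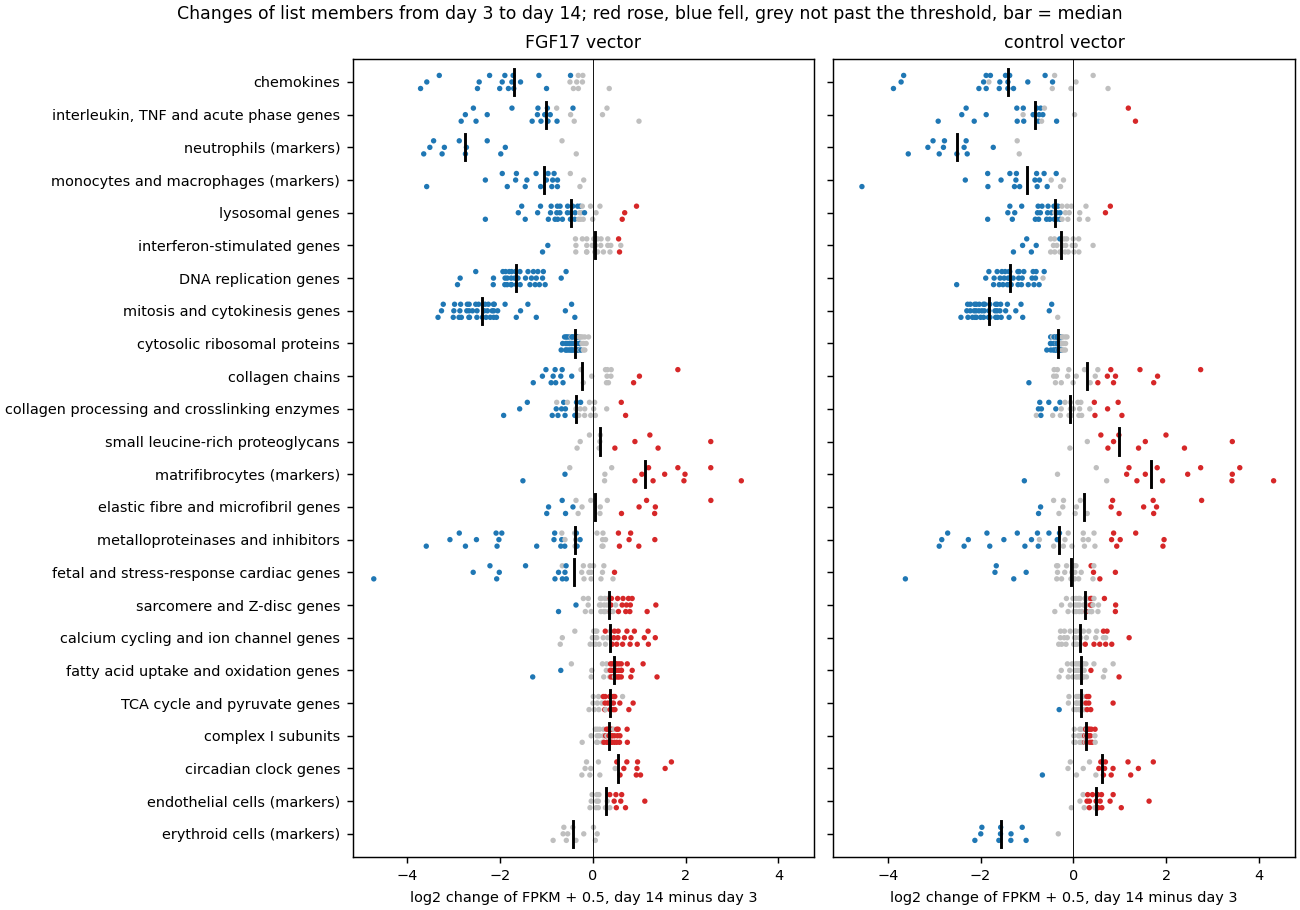
Log2 change from day 3 to day 14 of every tested member of 24 gene lists, with FGF17 (left) and with the control vector (right); each point is a gene, red where it rose, blue where it fell and grey where it was not called, and bars mark list medians. Mitosis genes lie at a median of -2.38 with FGF17 and -1.83 with the control vector, and fatty acid genes lie mostly above 0 with FGF17.

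Cell division genes fell without exception among those tested. All 36 DNA replication genes fell, with a median log2 change of -1.66, and so did all 43 mitosis and cytokinesis genes, with a median of -2.38. Their promoters are shown because both lists moved as blocks and are known from mammalian cells to be controlled through distinct promoter elements: E2F sites in genes of the S phase, and the CHR element with CCAAT boxes in genes of mitosis. The sequences are RefSeq promoters of GRCm38.p6, from 250 bases before to 50 bases after the start, written 5′ to 3′ on the strand of the gene. Capitals mark matches to the CCAAT box, to 4 forms of the E2F site (TTTGGCGC, TTTCCCGC, TTTCGCGC or TTTGCCGC) and to the CHR element, whose letters are TTTGAA. Both strands were searched, and overlapping matches were kept, such as the pair of E2F matches in Mcm5. Cdk1, on chr10:69352863-69353162 (minus strand), and Plk1, on chr7:122159185-122159484 (plus strand), are from the mitosis list. Mcm5, on chr8:75109259-75109558 (plus strand), and Rfc3, on chr5:151651159-151651458 (minus strand), are from the replication list. They had the smallest p among genes with a single promoter that held the motifs: both CHR and CCAAT for mitosis, and an E2F form for replication. They were thus chosen for these motifs and do not represent their lists.
Cdk1: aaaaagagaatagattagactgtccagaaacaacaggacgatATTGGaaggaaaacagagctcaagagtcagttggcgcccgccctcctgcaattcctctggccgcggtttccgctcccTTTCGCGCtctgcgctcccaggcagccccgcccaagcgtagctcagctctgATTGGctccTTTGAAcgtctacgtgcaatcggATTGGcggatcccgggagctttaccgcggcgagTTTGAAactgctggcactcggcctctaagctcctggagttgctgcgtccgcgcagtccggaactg
Plk1: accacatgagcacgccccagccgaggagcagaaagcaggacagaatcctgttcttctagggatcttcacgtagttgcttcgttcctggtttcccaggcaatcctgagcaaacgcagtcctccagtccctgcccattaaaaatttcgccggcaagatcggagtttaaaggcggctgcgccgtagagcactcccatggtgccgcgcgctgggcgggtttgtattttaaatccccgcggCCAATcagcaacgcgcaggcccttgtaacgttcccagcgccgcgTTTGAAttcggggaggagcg
Mcm5: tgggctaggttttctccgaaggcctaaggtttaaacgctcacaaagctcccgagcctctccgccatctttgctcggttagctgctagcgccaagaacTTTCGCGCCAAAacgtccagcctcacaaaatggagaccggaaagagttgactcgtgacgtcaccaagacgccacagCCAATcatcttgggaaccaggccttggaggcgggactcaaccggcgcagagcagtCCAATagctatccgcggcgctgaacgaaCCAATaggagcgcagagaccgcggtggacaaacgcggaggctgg
Rfc3: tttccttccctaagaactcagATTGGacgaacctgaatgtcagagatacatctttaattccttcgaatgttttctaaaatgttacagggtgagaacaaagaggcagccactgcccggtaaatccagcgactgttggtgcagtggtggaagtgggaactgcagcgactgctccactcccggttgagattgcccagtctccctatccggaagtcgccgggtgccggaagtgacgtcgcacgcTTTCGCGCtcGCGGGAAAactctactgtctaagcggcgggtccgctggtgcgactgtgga

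CHR was found in 76.3% of the 38 promoters of the mitosis list (35 of its 43 genes had a promoter in the table) and in 17.9% of all 32851 promoters of that length, or 12.2% of the 11984 promoters of tested genes. CCAAT was found in 76.3% against 37.4% of all promoters, and both motifs together in 65.8% against 6.95%. Among promoters of tested genes these 2 shares were 37.6% and 5.01%. The E2F forms were found in 34.2% of the 41 promoters of the replication list (33 of its 38 genes) and in 2.63% of the mitosis promoters. They were in 2.26% of all promoters and in 3.73% of those of tested genes. CHR was in 14.6% of the replication promoters. In the sequences above, which were chosen to hold such motifs, Cdk1 holds 2 CHR, 3 CCAAT and 1 E2F matches and Plk1 1 CHR and 1 CCAAT. Mcm5 holds 3 CCAAT and 2 E2F, and Rfc3 1 CCAAT and 2 E2F. A match describes letters in this window and was not tested as a site.

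Plk1, a kinase of mitotic entry and exit, was at 7.35, 7.58, 6.10 and 6.91 FPKM on day 3 and at 0.315, 0.448 and 0.162 FPKM on day 14 (log2 change -3.22 ± 0.15, limma adjusted p = 2.9e-10), and Cdk1, the kinase that drives mitosis, at 6.67, 7.35, 7.57 and 6.49 and at 0.468, 0.427 and 0.465 FPKM (log2 change -2.98 ± 0.14, limma adjusted p = 2.9e-10). Mcm5, a subunit of the replicative helicase, went from 6.71, 6.67, 5.85 and 7.22 to 0.756, 0.593 and 0.875 FPKM (log2 change -2.52 ± 0.15) and Rfc3, of the clamp loader, from 3.25, 2.80, 3.19 and 2.90 to 0.953, 0.995 and 0.798 FPKM (-1.32 ± 0.09). For all 4 the 2 days were separated, which picking these genes by the smallest p in the same libraries favours. Mki67 (the proliferation antigen Ki-67), Ccna2 (cyclin A2) and Tpx2 (a spindle assembly factor) had log2 changes of -2.99 ± 0.16, -3.26 ± 0.15 and -3.01 ± 0.15, and Uhrf1 and Rrm2, of DNA methylation upkeep and of nucleotide supply, -2.92 ± 0.14 and -2.86 ± 0.15. By the medians over the lists, mitosis genes stood at 5720% of sham on day 3 and 400% on day 14, and replication genes at 602% and 146%. With the control vector the mitosis genes stood at 5920% and 1140%, with 42 of 43 falling and a median change of -1.83. The fall was farther with FGF17 for 41 of the 43, a count that was not made over all genes tested. By size of change in either direction, it was 31 of 36 for replication genes and 33 of 37 for fatty acid genes. For small leucine-rich proteoglycans it was 1 of 11. At day 14 the summed level of the mitosis list was 33.63 to 36.59 FPKM with FGF17. With the control vector it was 77.95, 71.98 and 46.29 FPKM in libraries 1, 2 and 4. The test of the difference called 3 of the 43 mitosis genes (Ccna2, Plk1 and Ube2c) and 1 replication gene, Rrm2. For Ccna2 the change with the control vector was -2.13 ± 0.15 and the difference -1.13 ± 0.21 (limma adjusted p = 0.032), a call lost under 11 of 24 alternatives. Of 21 cell cycle inhibitors and p53 targets 4 rose and 7 fell. The CDK inhibitor Cdkn1c (p57) rose from 4.22 ± 0.822 to 13.4 ± 2.96 FPKM, and Trp53 itself fell by 0.74 on the log2 scale.

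**Figure D3:**
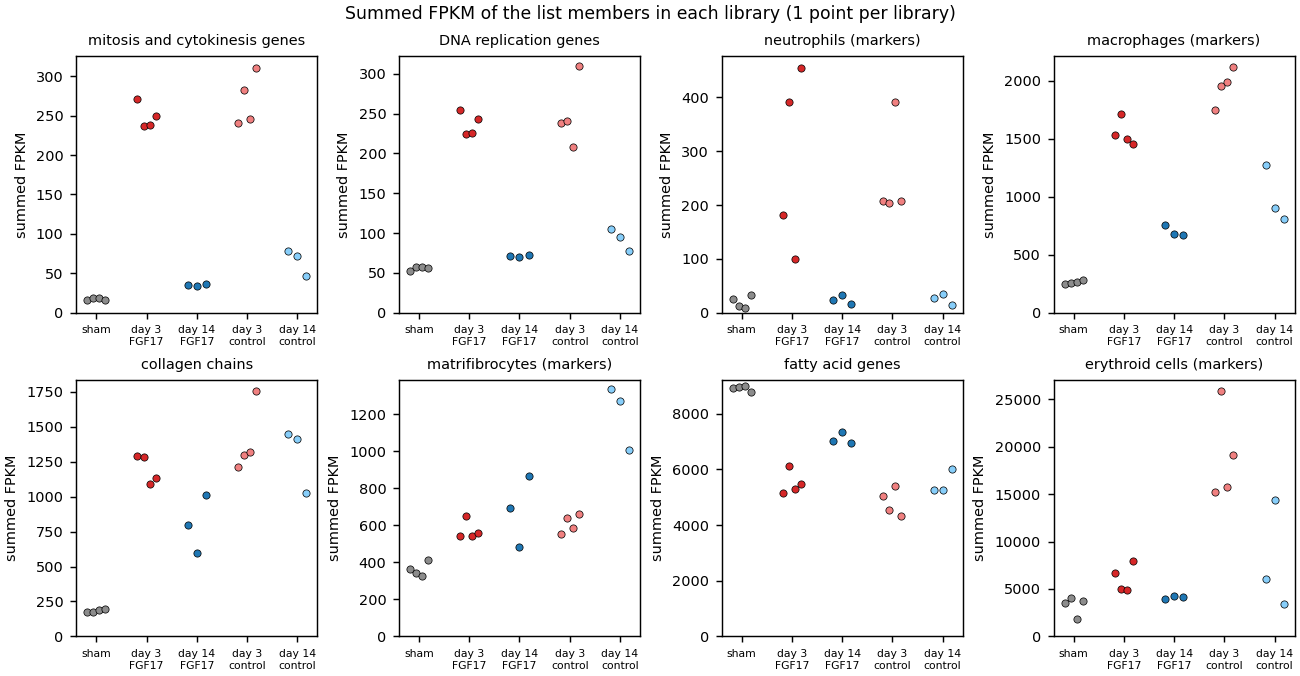
Summed FPKM of 8 gene lists in every library (points, axis from 0), by group. Neutrophil, macrophage, mitosis and DNA replication sums are highest in the day 3 groups, matrifibrocyte sums are 485 to 865 in the day 14 FGF17 libraries against 1007 to 1335 with the control vector, and the erythroid sum is 4914 to 7979 in the day 3 FGF17 libraries against 15210.0 to 25880.0 with the control vector.

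Matrix genes moved in both directions. Matricellular proteins, which signal from the matrix without building it, fell in 12 and rose in 9 of 24 genes. Tnc (tenascin-C, laid down at the infarct border) was at 49.5, 36.0, 43.0 and 43.9 FPKM on day 3 and at 4.50, 2.69 and 2.56 FPKM on day 14 (log2 change -3.57 ± 0.16, limma adjusted p = 2.9e-10), with a sham mean of 0.209 FPKM. Postn (periostin, of activated fibroblasts) went from 131, 82.8, 123 and 93.3 to 77.4, 34.6 and 61.8 FPKM (log2 change -0.94 ± 0.26, limma adjusted p = 0.0088), a call that was lost without day 14 library 3. Its change with the control vector was 0.23 ± 0.26 (limma adjusted p = 0.55), and the difference was not called (limma adjusted p = 0.16). Tgfbi, a collagen-binding protein that TGF-beta induces, fell from 53.9 ± 7.79 to 18.98 ± 1.74 FPKM. Of 24 collagen chains 11 fell and 3 rose, with a median of -0.23 (log2). The rises numbered 7 without day 14 library 3. Col1a1, of the main fibrillar collagen, was at 248, 265, 208 and 198 FPKM and then at 90.6, 74.8 and 121 FPKM (log2 change -1.28 ± 0.20, limma adjusted p = 7.8e-05), and Col3a1, of the early fibrillar collagen, at 332, 399, 272 and 292 and at 194, 151 and 212 FPKM (-0.80 ± 0.19). Both stayed far above the sham means of 8.65 and 13.4 FPKM. The rises were of the basement membrane chain Col4a4 (log2 change 1.0 ± 0.16), of Col4a3 and of Col8a2, a short-chain collagen, which went from 0.472 ± 0.230 to 3.43 ± 2.33 FPKM. With the control vector 9 collagen chains rose and 1, Col1a1, fell (median 0.30), and the test of the difference called none of the 24.

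Enzymes that join and cut collagen fell more often than they rose. Of 28 collagen processing and crosslinking enzymes 13 fell and 2 rose, against 7 and 5 with the control vector. Lox, the lysyl oxidase that crosslinks collagen and elastin, was at 76.6, 93.4, 67.9 and 75.9 FPKM on day 3 and at 26.3, 15.2 and 20.5 FPKM on day 14 (log2 change -1.92 ± 0.22, limma adjusted p = 3.4e-06), and its relative Loxl2 went from 36.0 ± 3.66 to 11.8 ± 2.31 FPKM. The log2 changes with the control vector were -0.69 ± 0.22 for Lox and -0.75 ± 0.16 for Loxl2, and the differences were not called (limma adjusted p = 0.084 and 0.11). Proteases and their inhibitors fell in 18 and rose in 6 of 35. Timp1, an inhibitor of metalloproteinases, was at 260.4, 398, 235 and 284 FPKM on day 3 and at 31.1, 18.9 and 22.1 FPKM on day 14 (log2 change -3.59 ± 0.25, limma adjusted p = 1.1e-08). Adamts4, a proteoglycan-cutting protease, fell from 5.58 ± 0.803 to 0.222 ± 0.114 FPKM, the neutrophil collagenase Mmp8 from 4.39 ± 1.16 to 0.221 ± 0.135 FPKM, and Plau and Plaur, the urokinase and its receptor, by 2.08 and 1.96 on the log2 scale. The inhibitors Timp2, Timp3 and Timp4 and the gelatinase Mmp2 went the other way, with log2 changes of 0.55, 0.78, 0.99 and 1.34, all called.

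Many genes of cartilage and tendon rose, while those of elastic fibres moved in both directions. Comp (cartilage oligomeric matrix protein, which binds collagen fibrils) was at 3.13, 2.85, 3.41 and 3.38 FPKM on day 3 and at 33.7, 12.9 and 84.2 FPKM on day 14 (log2 change 3.2 ± 0.38, limma adjusted p = 5.1e-06), and the log2 change was 3.87 without day 14 library 3 and 2.54 without day 14 library 4. Fmod (fibromodulin, a small leucine-rich proteoglycan that shapes collagen fibrils) was at 1.83, 1.18, 3.21 and 1.44 and at 16.2, 6.76 and 19.4 FPKM, and Eln (elastin) at 10.03, 8.70, 8.45 and 9.48 and at 50.8, 39.4 and 86.4 FPKM. Every day 14 library was above every day 3 library for each of these 3 genes, which the naming rule required. The log2 changes were 2.54 ± 0.33 for Fmod and 2.54 ± 0.31 for Eln. Of 16 matrifibrocyte markers 10 rose and 2 fell (Prg4 and Clu), with medians over the list of 154% of sham on day 3 and 492% on day 14, against 156% and 1320% with the control vector. Their summed level was 544 to 649.9 FPKM on day 3 and 692, 485 and 865 FPKM in day 14 libraries 1, 3 and 4, so that library 3 was below all day 3 libraries. Cartilage and tendon genes rose in 10 and fell in 2 of 16, against 14 and 1 with the control vector. The rises with FGF17 numbered 6 without day 14 library 4, and several genes of this list are also on the matrifibrocyte list. Angptl7, a secreted angiopoietin-like protein, went from 5.03 ± 2.17 to 23.0 ± 13.8 FPKM, Sfrp2, a secreted Wnt antagonist, from 9.01 ± 4.55 to 35.7 ± 12.9 FPKM, and C1qtnf3, a secreted C1q family protein, from 0.138, 0.0976, 0.527 and 0.0895 to 8.36, 3.15 and 4.39 FPKM. Itgbl1, an integrin-like secreted protein, rose by 1.8 ± 0.25 (log2). Small leucine-rich proteoglycans rose in 5 of 11 and fell in 0, among the rises Prelp, from 15.3 ± 2.20 to 37.0 ± 9.02 FPKM, and Omd (osteomodulin), from 0.949 ± 0.455 to 3.28 ± 0.944 FPKM. Without day 14 library 1 there were 2 falls. Elastic fibre genes rose in 6 and fell in 5 of 18, among the rises Ltbp4, which aids elastic fibre assembly (32.8 ± 4.70 to 88.0 ± 37.4 FPKM), and Fbln1 (15.4 ± 2.23 to 40.7 ± 13.2 FPKM), and among the falls Emilin1 (27.2 ± 4.26 to 13.8 ± 2.89 FPKM).

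Several of these matrix genes had a lower change with FGF17 than with the control vector by the test of the difference. Prelp had log2 changes of 1.23 ± 0.15 with FGF17 and 2.39 ± 0.15 with the control vector, a difference of -1.16 ± 0.22 (limma adjusted p = 0.032). Lum (lumican, also of this proteoglycan family) had changes of -0.27 ± 0.16 and 0.87 ± 0.16 (difference -1.14 ± 0.22, limma adjusted p = 0.043), and C1qtnf3 of 2.96 ± 0.25 and 4.67 ± 0.25 (difference -1.71 ± 0.35, limma adjusted p = 0.049). The difference calls of Prelp, Lum and C1qtnf3 were lost under 9, 15 and 17 of 24 alternatives. Lum thus stood at 102, 119.8, 120.0 and 125 FPKM on day 3 and 128, 92.8 and 75.3 FPKM on day 14 with FGF17, overlapping, but at 96.1, 103, 86.2 and 98.4 FPKM and 222, 167 and 144 FPKM with the control vector. Mgp, an inhibitor of calcification, Tnmd (tenomodulin, of tendon) and 1500015O10Rik, which stands for Ecrg4 in the lists, were further members of these lists in the difference test, with differences of -0.94, -1.76 and -2.21 (log2, limma adjusted p = 0.047, 0.026 and 0.028). For Comp, Fmod and Eln the difference was not called (limma adjusted p = 0.36, 0.41 and 0.87).

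Fibroblast markers moved in both directions, 6 up and 4 down of 19, whereas 12 rose and 1 fell with the control vector. Gsn (gelsolin) rose from 220.3 ± 19.1 to 619.7 ± 117 FPKM, Dpep1, a membrane dipeptidase, from 27.5 ± 1.18 to 64.4 ± 9.70 FPKM, and Htra3, a secreted protease, from 15.5 ± 2.32 to 33.2 ± 3.65 FPKM, while Vim (vimentin) fell from 188 ± 4.50 to 95.1 ± 8.94 FPKM. Without day 14 library 3, 2 fibroblast markers fell instead of 4. Fap (fibroblast activation protein) had a log2 change of -0.57 ± 0.12 with FGF17 and 0.29 ± 0.12 with the control vector (difference -0.86 ± 0.17, limma adjusted p = 0.046), and it and Lum were the fibroblast markers that the difference test called. Acta2, the smooth muscle actin that marks myofibroblasts and vessel walls, was at 200.4, 191, 169 and 159 FPKM on day 3 and 155, 154 and 183 FPKM on day 14, overlapping and not called. Myh11 (smooth muscle myosin) rose from 6.80 ± 1.19 to 16.9 ± 6.91 FPKM and Tpm4, a cytoskeletal tropomyosin, fell from 296 ± 13.8 to 142 ± 6.14 FPKM. 5 of 19 markers of myofibroblasts and smooth muscle rose, or 2 without day 14 library 4. Aldh1a2, a retinoic acid synthase of activated epicardium, fell from 53.6, 47.6, 41.8 and 72.1 to 8.88, 7.98 and 6 FPKM (log2 change -2.73 ± 0.21). Of 12 epicardial markers 2 fell in all, the other being Tbx18, whose call was lost without day 3 library 1 or day 14 library 3 or 4, and 1 rose, Rspo1.

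Genes of growth factor pathways changed in both directions, as did all genes tested, of which 16.2% rose and 22.5% fell. In the TGF-beta and BMP list 9 genes fell (28.1%) and 4 rose (12.5%) of 32, while 5 fell and 11 rose with the control vector. The rises with FGF17 numbered 8 under median-of-ratios scaling and 7 without the mitochondrially encoded genes. Tgfb1, the ligand, fell from 10.2, 10.1, 10.2 and 11.2 to 6.24, 5.99 and 6.82 FPKM, and Inhba, the activin A subunit, from 9.43 ± 1.07 to 2.88 ± 0.511 FPKM, while Bmp6 rose from 6.84 ± 0.540 to 15.7 ± 1.58 FPKM. With the control vector 10 Wnt modulators rose of 17, and with FGF17 7 (41.2%) rose and 0 fell. Besides Sfrp2 these included Dkk3, a secreted protein of the Dickkopf family, from 20.0 ± 4.30 to 40.5 ± 4.56 FPKM, and Rspo1, an R-spondin that amplifies Wnt signals, from 0.565 ± 0.148 to 1.91 ± 0.193 FPKM. IGF axis genes rose in 3 (23.1%) and fell in 2 (15.4%) of 13, against 6 and 1 with the control vector. With FGF17 the binding protein Igfbp6 rose from 10.04 ± 1.65 to 35.6 ± 5.39 FPKM and Igfbp3 fell from 42.0 ± 5.47 to 28.0 ± 5.79 FPKM. Igfbp2, at a mean of 0.140 FPKM on day 14 with FGF17, was the member that the difference test called (-1.72 ± 0.30, log2, limma adjusted p = 0.028). With the control vector 9 of 23 ERK feedback genes fell and 3 rose, and with FGF17 12 (52.2%) fell and 1 rose. Dusp6, a phosphatase of ERK, was at 16.3, 19.6, 18.3 and 20.6 FPKM on day 3 and 12.4, 12.01 and 12 FPKM on day 14 (log2 change -0.60 ± 0.17, limma adjusted p = 0.011), and Spry4 went from 5.80 ± 0.802 to 3.85 ± 0.183 FPKM (adjusted p = 0.0055 by limma). Spry1, Spry2 and the receptor Fgfr1 were not called, with log2 changes of 0.12, -0.25 and 0.17, and for these 5 genes the difference between the vectors was not called either. Fgfr3, another receptor, rose from 0.617 ± 0.0776 to 2.25 ± 0.0857 FPKM, and the FGF ligand and receptor list had 4 rises among 16, or 2 without day 14 library 3.

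Of the cardiomyocyte genes that changed, most rose. Sarcomere and Z-disc genes rose in 16 and fell in 2 of 38 (8 rose and 0 fell with the control vector), and calcium cycling and ion channel genes rose in 18 and fell in 0 of 35 (8 rose and 0 fell with the control vector). The medians over these lists were 77.6% of sham on day 3 and 98.4% on day 14 for the sarcomere, and 80.0% of sham on day 3 and level with sham on day 14 for the channels. The control vector gave 71.0% and 80.8%, and 77.0% and 79.4%. With median-of-ratios scaling, added after the data were seen, the day 14 medians were 82.5% for the sarcomere and 84.5% for the channels with FGF17, and 66.8% and 65.8% with the control vector. Myh6, the main myosin heavy chain of the adult mouse heart, was at 1196, 906, 1082 and 1177 FPKM on day 3 and at 1550.0, 1671 and 2221 FPKM on day 14 (log2 change 0.72 ± 0.15, limma adjusted p = 0.0012), so that the days did not overlap, and its sham mean was 1759 FPKM. Atp2a2 (the calcium pump SERCA2) rose from 772 ± 40.1 to 1070.0 ± 115 FPKM, Kcnip2, a subunit of the transient outward potassium channel, from 10.3 ± 2.83 to 23.8 ± 3.75 FPKM, and Kcnj11, of the ATP-sensitive channel, from 11.9 ± 0.900 to 23.9 ± 4.38 FPKM. Ckm (muscle creatine kinase) rose from 183 ± 18.9 to 378 ± 37.9 FPKM and the transcription factor Hand2 from 15.4 ± 1.15 to 29.5 ± 5.15 FPKM. The difference between the vectors was not called for any gene of either list.

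Stress-response genes of the heart divided. In that list 12 of 26 fell and 1 rose. Besides Sprr1a, Nmrk2, a nicotinamide riboside kinase of stressed muscle, went from 64.6 ± 14.4 to 10.7 ± 4.02 FPKM, and Mt2, a metal-binding metallothionein, from 166, 278, 176 and 274 to 56.3, 44.1 and 40.0 FPKM. The natriuretic peptides Nppa and Nppb were not called, at 2065 ± 272 and 1746 ± 197 FPKM for Nppa and at 571 ± 21.1 and 580.0 ± 67.2 FPKM for Nppb on day 3 and day 14. Acta1, the skeletal actin of the fetal heart, and Myh7, the slow myosin, were not called either, with log2 changes of 0.24 ± 0.29 and 0.43 ± 0.35. Adrenergic, angiotensin and natriuretic signalling genes rose in 8 and fell in 0 of 28, including the natriuretic receptors Npr2 and Npr3 (log2 changes 0.71 and 0.96), the mineralocorticoid receptor Nr3c2 (0.93) and the adenylyl cyclase Adcy6 (0.88).

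Many genes of oxidative metabolism rose with FGF17. Of 37 genes of fatty acid uptake and oxidation 26 rose and 2 fell, with a median log2 change of 0.47, whereas 2 rose and 0 fell with the control vector (median 0.16). The difference itself was called for none of the 37 genes, and the difference between the lists was not tested. By the medians over the list, these genes were at 59.1% of sham on day 3 and 82.5% on day 14 with FGF17, and at 53.1% and 57.7% with the control vector. Under median-of-ratios scaling these values were 48.7% and 68.9%, and 43.0% and 47.7%. All libraries of the FGF17 group were below all sham libraries for 30 of the 37 genes on day 3 and for 19 on day 14. These counts are of FPKM as deposited and were not made after scaling, which lowered the medians. The same counts were not made over all genes tested or for the control vector. Acadm, the medium-chain acyl-CoA dehydrogenase, was at 173, 188, 174 and 182 FPKM on day 3 and at 239.8, 282 and 244 FPKM on day 14 (log2 change 0.51 ± 0.09, limma adjusted p = 0.00022), and Eci1, an enoyl-CoA isomerase, went from 124 ± 14.1 to 208 ± 24.5 FPKM. Etfa, which passes electrons from the dehydrogenases to the respiratory chain, rose from 195 ± 14.2 to 274 ± 30.8 FPKM, and Cpt1b, the muscle gate of fatty acid entry into mitochondria, from 64.2 ± 8.72 to 86.5 ± 10.7 FPKM, a call that was lost without day 3 library 1, 3 or 4 or day 14 library 1 or 4. Acot1 and Acot2, thioesterases that rose as well, are near-identical copies and uncertain. Pdk4, a kinase that inhibits pyruvate dehydrogenase, was at 255, 279, 129 and 267 FPKM on day 3 and 81.1, 81.0 and 112 FPKM on day 14 (log2 change -1.29 ± 0.45, limma adjusted p = 0.03). Its fall was lost without day 3 library 1, 2 or 4 and under other alternatives, and day 3 library 3 alone was low.

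**Figure D4:**
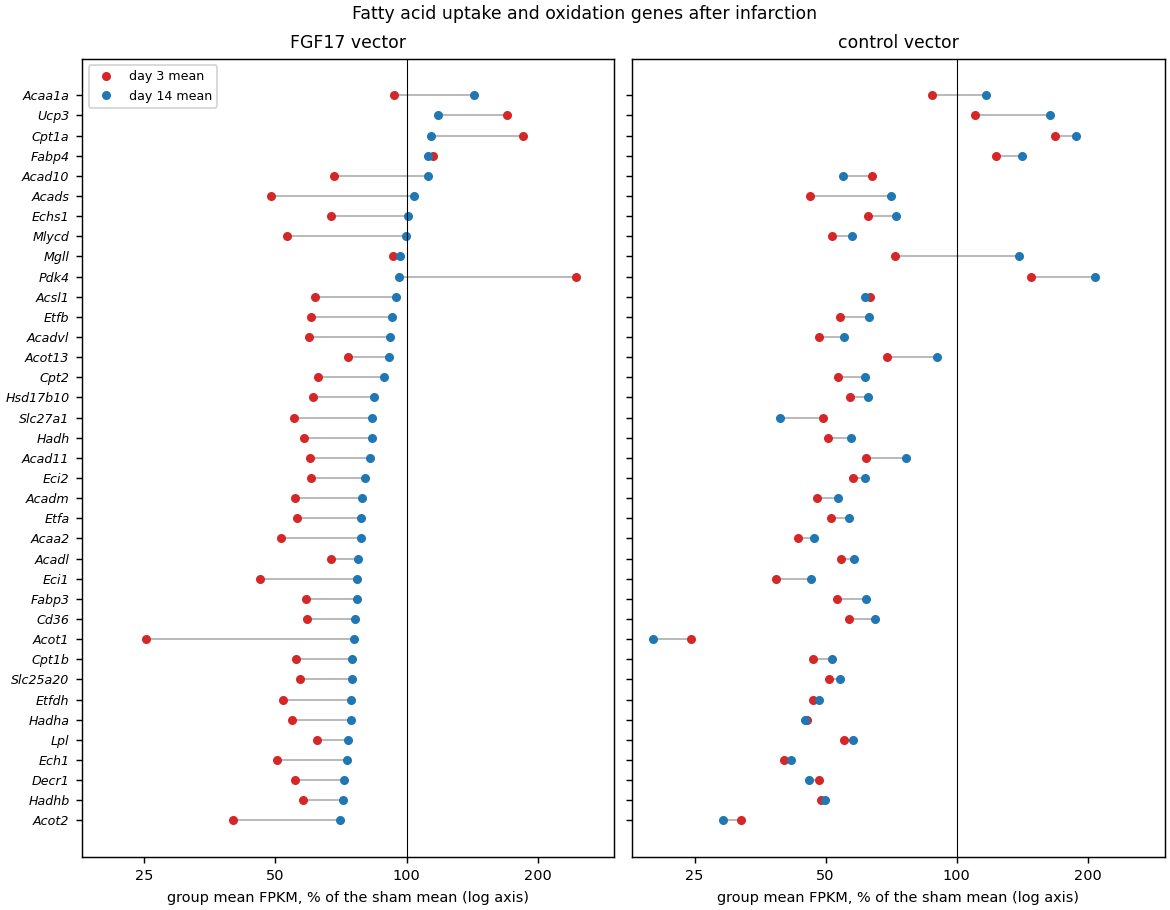
Mean FPKM of each tested gene of fatty acid uptake and oxidation as a percentage of its sham mean (log axis) at days 3 and 14, with FGF17 and with the control vector; each line is a gene. The median moved from 59.1 to 82.5% with FGF17 and from 53.1 to 57.7% with the control vector.

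Lipolysis and lipid droplet genes rose in 10 and fell in 3 of 21. Pnpla2, the adipose triglyceride lipase that also serves heart muscle, was at 39.2, 61.0, 39.5 and 41.9 FPKM on day 3 and at 94.9, 107 and 131 FPKM on day 14 (log2 change 1.29 ± 0.16, limma adjusted p = 8.4e-06), with 141 FPKM in sham hearts. Its change with the control vector was 0.30 ± 0.16 (limma adjusted p = 0.17), and the difference was not called (limma adjusted p = 0.061). Angptl4, an inhibitor of lipoprotein lipase, and Plin2, a lipid droplet coat protein, fell from 12.9 ± 3.15 to 2.15 ± 0.290 FPKM and from 45.0 ± 3.92 to 19.2 ± 1.06 FPKM. In the TCA cycle and pyruvate list 18 of 29 rose and 0 fell, including Idh2, an isocitrate dehydrogenase (log2 change 0.78), and Pdk2, a further pyruvate dehydrogenase kinase (0.87), and 7 rose with the control vector. Subunits of respiratory complex I rose in 23 and fell in 0 of 37, and those of complexes III, IV and ATP synthase rose in 12 and fell in 0 of 38. The counts of rises with the control vector were 15 and 6, and the medians (log2) of complex I subunits were 0.34 with FGF17 and 0.27 with the control vector. Among the rises were those of Ndufb9 (log2 change 0.55 ± 0.08) and Cox4i1 (271 ± 15.6 to 415 ± 39.0 FPKM). The 13 mitochondrially encoded genes gave no call in either direction, and their summed share was lowest in day 14 library 4. Regulators of mitochondrial biogenesis rose in 14 and fell in 1 of 32: the muscle coactivator Perm1 went from 37.4 ± 2.18 to 65.6 ± 10.1 FPKM and Klf15 from 6.05 ± 1.503 to 16.4 ± 2.92 FPKM, while Ppargc1a itself was not called (-0.51 ± 0.27). Amino acid and ketone body breakdown genes rose in 15 and fell in 0 of 24, or rose in 7 without day 14 library 3, and 5 rose with the control vector. Bckdha, of branched-chain ketoacid breakdown, went from 34.4 ± 3.46 to 72.1 ± 10.1 FPKM. Glycolysis and pentose phosphate genes fell in 13 and rose in 8 of 34. The falls included Slc16a3, a lactate exporter, Hk3, a hexokinase of myeloid cells, and Slc2a1, the glucose transporter GLUT1 (log2 changes -1.79, -1.53 and -1.16), and the rises the muscle enolase Eno3 (0.49). 4 rises were left without day 14 library 4, and 5 without day 3 library 1 or 3 or day 14 library 3.

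Genes of protein synthesis fell, and stress pathways were mixed. Cytosolic ribosomal protein genes fell in 38 and rose in 0 of 51 (median -0.38, log2; -0.33 with the control vector), for example Rpl3 from 158 ± 8.29 to 98.1 ± 4.82 FPKM. Integrated stress response and unfolded protein genes fell in 10 and rose in 3 of 30, with Edem1, of protein disposal in the endoplasmic reticulum, down by 0.97 on the log2 scale and Atf5, a stress transcription factor, up by 1.07. Proteasome and ubiquitin ligase genes fell in 8 (23.5%) and rose in 5 (14.7%) of 34, near the 22.5% and 16.2% of all genes tested. With the control vector 18 fell and 3 rose. Trim63, the muscle ubiquitin ligase MuRF1, rose with FGF17 from 29.1 ± 3.03 to 48.3 ± 4.94 FPKM. The proteasome ATPase Psmc3 had log2 changes of 0.51 ± 0.09 with FGF17 and -0.17 ± 0.09 with the control vector (difference 0.68 ± 0.13, limma adjusted p = 0.043). Its difference call was lost under 14 of 24 alternatives. Heat shock protein genes rose in 9 and fell in 1 of 26, or rose in 5 without day 14 library 4, among them Hsph1 from 6.79 ± 0.978 to 13.2 ± 0.717 FPKM and Hspb8 from 122 ± 4.10 to 200.5 ± 4.77 FPKM. In the Nrf2 and glutathione list 8 rose and 8 fell of 30, with Gstm1, a glutathione transferase, up by 0.85 and Gsr, the glutathione reductase, down by 1.10 on the log2 scale. Heme and iron handling genes fell in 7 (28.0%) and rose in 2 (8.0%) of 25. Besides Hmox1 the falls included Tfrc, the transferrin receptor, from 15.8 ± 2.14 to 7.82 ± 1.14 FPKM. Red cell genes gave no call with FGF17 (11 tested), whereas 10 fell with the control vector. 4 were called as falls with FGF17 when the fit held the compared libraries only. Hbb-bs, a beta globin with near-identical copies, had log2 changes of -0.62 ± 0.37 and -1.57 ± 0.37 with the 2 vectors, and the difference was not called (limma adjusted p = 0.44).

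Many vessel and clock genes rose. Endothelial markers rose in 8 and fell in 0 of 20 (15 rose with the control vector), with the water channel Aqp1 from 46.2 ± 5.24 to 101 ± 11.8 FPKM. Pericyte markers rose in 6 and fell in 1 of 10, against 7 and 1 with the control vector. Rgs5, a regulator of G protein signals, rose from 127 ± 9.51 to 215 ± 40.6 FPKM, while Mcam fell by 0.97 on the log2 scale. Of 34 angiogenic genes 8 rose (23.5%) and 6 fell (17.65%), against 16.2% and 22.5% of all genes tested. Apln (apelin, made by sprouting vessels) was at 24.1, 12.8, 18.6 and 21.7 FPKM on day 3 and at 3.29, 3.37 and 3.29 FPKM on day 14 (log2 change -2.34 ± 0.23, limma adjusted p = 7.4e-07), and Hif1a, the hypoxia factor, went from 39.1 ± 3.05 to 18.3 ± 1.83 FPKM, while Epas1 (HIF-2 alpha) rose from 55.3 ± 1.37 to 79.6 ± 10.2 FPKM. Circadian clock genes rose in 10 and fell in 0 of 18, such as Nr1d1 (REV-ERB alpha) from 9.85, 12.4, 12.6 and 8.27 to 36.0, 28.8 and 43.0 FPKM and Dbp from 8.69, 5.87, 10.2 and 7.83 to 19.4, 21.4 and 35.3 FPKM. Clock genes also moved with the control vector (11 rose and 1 fell), and the labels give no hour of collection. Adipocyte genes rose in 8 and fell in 0 of 14, or rose in 5 without day 3 library 1 or day 14 library 1, with Thrsp, a lipogenic regulator, from 5.21 ± 0.591 to 23.0 ± 3.98 FPKM and Ucp1, the uncoupling protein of brown fat, from 0.0719, 3.65, 0.819 and 0.332 to 6.96, 4.72 and 4.05 FPKM. The summed level of the adipocyte list was 202 to 261 FPKM on day 3 and 272 to 315 FPKM on day 14, and the part of fat around the heart in these values was not tested.

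The largest rise of the genes named by the naming rule was that of Cyp1a1, a cytochrome P450 that the aryl hydrocarbon receptor induces (GRCm38 chromosome 9, 57687928 to 57703824, plus strand). Cyp1a1 was at 0.237, 0.271, 0.504 and 0.280 FPKM on day 3 and at 10.3, 29.2 and 8.16 FPKM on day 14 with FGF17 (log2 change 4.11 ± 0.41, limma adjusted p = 7.2e-07). With the control vector it was at 1.12, 0.299, 1.59 and 0.480 FPKM on day 3 and at 1.45, 0.415 and 1.74 FPKM on day 14, and in sham hearts at 10.03 to 19.5 FPKM. All MI groups but the day 14 FGF17 libraries were thus far below the sham level, and the difference between the vectors was 3.79 ± 0.57 (log2, limma adjusted p = 0.026). This difference kept its direction in all 24 alternatives (3.24 to 4.60) but was not past the threshold in 6 of them. Inmt, a methyltransferase of small amines, also rose, from 2.09 ± 1.04 to 13.04 ± 4.74 FPKM.

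Among the 44 genes of the difference test, the changes with FGF17 and with the control vector had opposite signs for 23, and both changes were called for 19. Nrep, a protein of regenerating and wounded tissue, fell with FGF17 (-0.93 ± 0.15) and rose with the control vector (0.43 ± 0.15), a difference of -1.37 ± 0.21 (limma adjusted p = 0.026). Its levels were 23.2, 20.4, 22.2 and 21.5 FPKM on day 3 and 12.8, 9.05 and 12.04 FPKM on day 14 with FGF17, against 14.2, 18.7, 19.6 and 21.1 FPKM and 26.3, 29.4 and 19.7 FPKM with the control vector. The ranges of the vectors overlapped at day 3, and at day 14 every FGF17 library was below every control library. Ptn (pleiotrophin, a heparin-binding growth factor) had changes of -0.06 ± 0.19 and 1.3 ± 0.19 (difference -1.36 ± 0.27, limma adjusted p = 0.043), and Cdca3, which triggers mitotic entry, of -2.94 ± 0.14 and -1.72 ± 0.14 (difference -1.22 ± 0.20, limma adjusted p = 0.026). In the other direction, Trim54, a sarcomere-bound ubiquitin ligase, rose with both vectors, by 1.37 ± 0.13 and 0.45 ± 0.13 (difference 0.91 ± 0.18, limma adjusted p = 0.043), and Cpeb3, which controls translation at the poly(A) tail, had changes of 1.05 ± 0.15 and -0.12 ± 0.15 (difference 1.17 ± 0.21, limma adjusted p = 0.032). H2-Q6, a class I histocompatibility gene with near-identical copies, had changes of 1.31 ± 0.22 and -0.46 ± 0.22. The difference calls were lost under 7 of 24 alternatives for Nrep and Cdca3, 9 for Cpeb3 and 11 for H2-Q6. For Ptn and Trim54 they were lost under 13 and 14. Of the 44 genes, Ror1, P2rx7, Mrps18b, Nrep and Tbc1d4 were called in opposite directions with the 2 vectors; 6 further genes so called, Ccdc69, Creg1, Gramd1b, Pja1, Rbbp7 and Rufy2, were not past the threshold of the difference test.

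**Figure D5:**
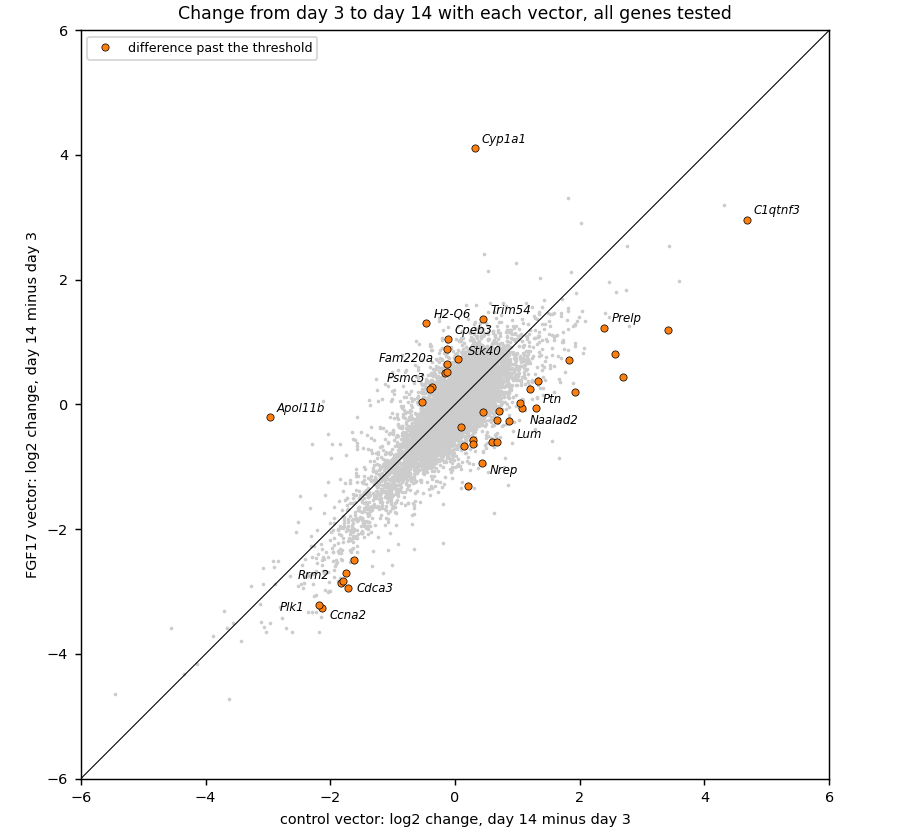
Log2 change from day 3 to day 14 with the control vector (horizontal axis) and with FGF17 (vertical axis) for all 12052 genes tested (grey), with the 44 genes of the difference test in orange. Cyp1a1 lies far above the diagonal, and Prelp, C1qtnf3 and the mitosis genes Ccna2 and Plk1 below it.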

How the data were processed

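Gene FPKM values of 18 mouse heart RNA-seq libraries were used as the authors deposited them. Per the submitters' processing notes, the tools were FastQC 0.11.7, cutadapt 1.17, HISAT2 2.1.0 and StringTie 1.3.3, with genome build GRCm38; strandedness and read numbers are not given in the sources used here. FPKM is relative to the fragments of a library, so a shift in abundant transcripts moves all other values. Table columns were assigned to groups by name, and their numbers differ in part from those in the sample titles, so that a number only names a library.

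From the deposited FPKM, log2(FPKM + 0.5) was computed, which understates fold changes of low genes. Of 12988 genes, the 12052 that reached 1 FPKM in 3 or more libraries were tested. A linear model with 1 mean for each of the 5 groups was fitted to all 18 libraries (limma 3.58.1 under R 4.3.3, trended prior). P-values were adjusted over all genes tested (Benjamini-Hochberg, threshold 0.05), and the fit was checked on simulated data with known changes. Python 3.11.15, pandas 2.3.3, scipy 1.17.1 and matplotlib 3.10.9 did the rest. RefSeq gave the promoters.

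Genes were named by rule: the 15 largest rises and falls with FGF17 (mean of at least 5 FPKM in 1 group, days not overlapping), the 8 largest in each direction in the difference test, the 4 with the smallest p in each of 66 lists (22 of cell markers, 2 of RNA quality) and a constant set of 37. The lists and members were chosen with earlier results of these data known, and other list members named in the text were picked after their values were seen. Alternatives were other pseudocounts (0.1 and 1), filters (none and 5 FPKM), scalings, a robust prior, a block on library number, a fit to the compared libraries alone, and leaving out each library. Same-numbered libraries did not deviate together in either vector's groups, so the block was kept as an alternative. Some results are not reported here because their items are withheld.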

Additional observations from a re-analysis of the deposited data

Results flagged for a closer look

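Among the 291 named genes, 15 had 1 day 3 FGF17 library set far apart from the other 3 (a gap over range above Dixon's 95% critical value for 4 samples); chance alone gives this for about 1 in 20 groups, and the groups of 3 were not tested. Library 3 held 7 of them. It was highest for Cyp1a1 (0.504 against 0.237 to 0.280 FPKM in the others), C1qtnf3 (0.527 against 0.0895 to 0.138 FPKM), Ptn (11.2 against 8.86 to 9.07 FPKM) and Lck, a T cell kinase (1.04 against 0.689 to 0.729 FPKM). The same library was highest for Rgs5 (141 against 121 to 123 FPKM) and Ckm (212 against 173 to 175 FPKM), and lowest for Pdk4 (129 against 255 to 279 FPKM). Library 2 was highest for H2-Q6 (13.8 against 7.79 to 8.75 FPKM), Trim54 (87.1 against 68.9 to 72.0 FPKM) and Pnpla2 (61.0 against 39.2 to 41.9 FPKM), and lowest for Ltbp4 (25.8 against 34.4 to 35.7 FPKM). Library 4 was highest for Tgfb1 (11.2 against 10.1 to 10.2 FPKM) and Fbxo31, a ubiquitin ligase subunit (7.72 against 6.04 to 6.33 FPKM), and lowest for the interferon-stimulated gene Ifi44 (1.36 against 2.22 to 2.29 FPKM). Library 1 was highest for Tpx2 (11.0 against 8.99 to 9.24 FPKM).

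The difference of the changes between the vectors was called for the 16 named genes of the difference test. These calls were lost under 6 (Cyp1a1) to 17 (C1qtnf3 and Apol11b) of 24 alternatives. The change from day 3 to day 14 was more positive with FGF17 for Cyp1a1 (difference 3.79, log2), Apol11b (2.77), H2-Q6 (1.77), Cpeb3 (1.17), Trim54 (0.91), Fam220a (0.77), Psmc3 (0.68) and Stk40 (0.68). For Apol11b, of the apolipoprotein L family, the levels with FGF17 were 0.742, 0.833, 1.52 and 0.971 FPKM on day 3 and 0.768, 0.968 and 0.653 FPKM on day 14, against 8.58, 18.9, 20.9 and 9.98 and 1.77, 2.63 and 0.316 FPKM with the control vector. The change was more negative for C1qtnf3 (-1.71), Nrep (-1.37), Ptn (-1.36), Cdca3 (-1.22), Prelp (-1.16), Naalad2, a dipeptidase (-1.14), Lum (-1.14) and Ccna2 (-1.13). All limma adjusted p-values of these 16 lay between 0.026 and 0.049.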

How the results depend on the processing

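Of 307 named results on 291 genes, 255 kept their side of the threshold under all alternatives run (17 for a change between days, 24 for a difference between vectors), 40 lost their call under at least 1 and 12 gained one; 9 changed sign under at least 1, of which 0 were past the threshold. Genes lower at day 14 with FGF17 numbered 1781 with the 5 FPKM filter, which tests 7269 genes, and genes higher with the control vector 2048 without the mitochondrially encoded genes, where 53.4% instead of 37.9% of its calls were higher; the cause was not tested. Leaving out single libraries gave 3802 to 4519 calls with FGF17. The 44 difference calls (13 higher, 31 lower) became 16 (6, 10) with a pseudocount of 0.1, 76 (26, 50) with median-of-ratios scaling, 72 with 61 lower without mitochondrially encoded genes, 10 (2, 8) in the compared libraries alone and 0 (0, 0) with a common total. Without single libraries they ranged from 0 to 193 (0 to 42 higher, 0 to 151 lower); the cause was not tested. The Fgf17 difference of 3.92 FPKM reversed to -11.4 and -0.0360 FPKM without 1 library. Percentages of sham after median-of-ratios scaling were added later. Unknown depth limits the precision at low FPKM.

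With a replicate block on library number limma called 4352 genes with FGF17, 3440 with the control vector and 0 (0 higher, 0 lower) for the difference, where 1665 had an unadjusted p under 0.05. Deviations of same-numbered libraries correlated at -0.025, 0.036 and 0.086 in the FGF17 groups and at -0.155, 0.078 and -0.064 in the control groups, so the numbers were not taken to pair the samples.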

Other observations

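Several further marker lists held changes between day 3 and day 14 with FGF17. Dendritic cell markers fell in 5 of 7 tested genes and rose in 1. The integrin Itgax fell from 2.31 ± 0.726 to 0.907 ± 0.196 FPKM and the transcription factor Irf8 from 3.86 ± 0.430 to 2.12 ± 0.636 FPKM. Zbtb46, a transcription factor of classical dendritic cells, rose by 0.45 ± 0.08 (log2). NK cell markers fell in 4 of 5. The receptor chain Klrd1 was at 1.84, 2.43, 2.004 and 1.85 FPKM on day 3 and 0.919, 0.573 and 0.590 FPKM on day 14, and the granzyme Gzmb changed by -1.22 ± 0.32 (log2), a call that was lost without day 14 library 4. Dendritic cell falls numbered 2 without day 14 library 3 and 3 without library 1 of either day, and NK cell falls 2 without day 3 library 3 or day 14 library 4. Of 6 mast cell markers 2 fell, Kit and Hdc, the latter not without day 3 library 2 or 4 or day 14 library 1 or 3. The mast cell proteases Cpa3 and Tpsb2 were not called, with log2 changes of 0.63 ± 0.33 and 0.69 ± 0.33. Lymphatic endothelial markers rose in 2 and fell in 1 of 6. Pdpn (podoplanin, also made by activated fibroblasts and macrophages) fell from 29.9 ± 4.30 to 13.2 ± 3.40 FPKM and Mmrn1 rose from 3.24 ± 0.540 to 6.54 ± 1.16 FPKM.

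Atrial cardiomyocyte markers rose in 4 and fell in 0 of 12, with the potassium channel Kcna5 from 5.86 ± 1.47 to 13.8 ± 1.16 FPKM, but in 2 without day 3 library 2, 3 or 4 or day 14 library 3 or 4. The summed level of this list was 2274 to 3053 FPKM on day 3 and 2107 to 2602 FPKM on day 14. Schwann cell and neuron markers rose in 1 and fell in 1 of 8. S100b rose by 0.71 ± 0.23 (log2; not called without day 3 library 3 or day 14 library 4) and Gap43, a growth cone protein, fell from 1.35 ± 0.145 to 0.470 ± 0.174 FPKM. Skeletal muscle genes rose in 3 and fell in 1 of 11, against 7 and 0 with the control vector. Tnnt3, the fast skeletal troponin T, was at 2.88, 1.43, 2.94 and 6.81 FPKM on day 3 and 0.962, 0.296 and 0.570 FPKM on day 14 with FGF17 (log2 change -1.73 ± 0.54, a call lost without day 3 library 4 or day 14 library 3). Tnnc2, the fast troponin C, was called in the difference test (-2.25 ± 0.41, log2, limma adjusted p = 0.032). Immediate early genes, which respond within minutes to handling and stress, fell in 10 and rose in 1 of 21. Among the falls were those of Socs3, from 14.1 ± 4.16 to 4.96 ± 0.267 FPKM and Junb, from 19.9 ± 2.73 to 9.74 ± 1.74 FPKM. With the control vector 8 fell and 3 rose.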
